A study of Mus musculus with 18 samples.

Results

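The genes described here encode the machinery of oxidative phosphorylation, and they were taken by name from a table of log2 expression values of 12547 genes in mouse CD4 Th1 cells lacking or carrying Id3. Every row whose gene symbol begins with Nduf, Uqcr, Atp5 or mt-, whose symbol is Sdha, Sdhb, Sdhc, Sdhd or Cyc1, or whose symbol begins with Cox followed by a digit between 4 and 8 was a member, which gave 105 genes. Of these, 92 are nuclear and 13 are encoded by the mitochondrial genome. The nuclear members comprise 37 subunits of complex I, 8 assembly factors of complex I, 4 subunits of complex II, 9 of complex III, 16 genes of complex IV, 17 subunits of complex V and the pseudogene Cox5b-ps. The mitochondrial members comprise 7 subunits of complex I, 1 of complex III, 3 of complex IV and 2 of complex V. Ndufa4 was counted with complex IV, where its product sits despite its name, and so was Cox7a2l, whose product joins complexes III and IV into supercomplexes.

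Oxidative phosphorylation passes electrons through complexes I to IV of the inner mitochondrial membrane. Complexes I, III and IV pump protons, complex II does not, and complex V uses the proton gradient to make ATP. Complexes I, III, IV and V are mosaics of nuclear and mitochondrial gene products, whereas complex II, which is also the succinate dehydrogenase of the citric acid cycle, is wholly nuclear. The mitochondrial messages are cut from long transcripts of a small circular genome, while the nuclear subunits are transcribed gene by gene and imported. In T cells, activation expands mitochondrial mass and respiration along with glycolysis, and the balance between them shifts as effector cells age.

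The 18 libraries fall into 6 groups of 3. Id3 knockout (genotype KO) and wild-type (WT) cells each form a set 3, a set 5 and a set 6, after the numbers in the treatment labels ID3.KO, ID5.KO, ID6.KO, WT3.WT, WT5.WT and WT6.WT. All libraries came from naive CD4 T cells that had been stimulated with anti-CD3 and anti-CD28 beads in Th1 medium with IL2, IL12 and antibody to IL4. What distinguishes the sets is not stated in the labels, and the names of the authors' own contrasts tie set 3 to the number 24 and sets 5 and 6 to 96, without a unit. No label gives the animals' age or strain or says that the 3 libraries of a group came from separate mice, and the p-values here therefore rest on a spread among libraries that may be technical. Id3 itself was between 1.0 and 5.63 on the deposited log2 scale in the 9 KO libraries, against 8.85 to 10.08 in the 9 WT libraries, so every library matched its genotype label.

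Markers of CD4 T cells were present in every library, with the summed level of the 8 measured genes of 9 between 15.3 and 16.8. This list was lower in KO set 3, at 15.3 to 15.4, against 15.7 to 15.8 in WT set 3. It was higher in KO set 5 (16.6 to 16.7, against 16.1 to 16.2) and KO set 6 (16.76 to 16.78, against 16.21 to 16.40). The Th1 list (4 of 4) was 14.9 to 15.7 in KO set 3, against 14.1 to 14.3 in WT set 3. In set 5 it was 14.8 to 15.7, against 14.2 to 14.3, and in set 6 the genotypes overlapped. In set 3 the erythroid list (4 of 6 measured) summed to 11.6 to 13.8 in KO libraries, against 8.2 to 9.2 in WT libraries, the B cell list (5 of 5) to 7.7 to 10.7 in KO libraries, against 5.8 to 7.1 in WT libraries, and the granulocyte and mast cell list (2 of 6) to 7.4 to 8.0 in KO libraries, against 2.7 to 4.2 in WT libraries. The macrophage and monocyte list (4 of 6) summed to 9.3 to 9.8 in KO set 5, against 7.2 to 7.6 in WT set 5, and to 10.3 to 10.5 in KO set 6, against 8.4 to 9.4 in WT set 6, with Lyz2 touching the lowest value of the table in WT set 5 and both set 6 groups. The B cell list was also higher in KO set 5, at 6.8 to 7.0, against 5.4 to 5.7 in WT set 5. In set 6 it was 6.3 to 7.1 in KO libraries, against 4.8 to 5.9 in WT libraries. The erythroid list was lower in KO set 5, at 4.2 to 5.2, against 5.9 to 6.1 in WT set 5. The CD8 T cell list (2 of 2) was 8.62 to 9.05 in KO set 5, against 7.78 to 8.58 in WT set 5. The macrophage and monocyte list was 7.14 to 7.63 in KO set 3, against 6.21 to 6.75 in WT set 3. Itgax, the measured dendritic cell marker, was 1.63 to 2.34 in KO set 6, against 1.01 to 1.33 in WT set 6. The part of these lists in the results was not tested. Among the 3 libraries of a group, 97% to 98.4% of the ranked values coincided within 1e-09, so the deposited values had nearly the same distribution inside a group but not between groups. The median of all genes consequently differed between groups. It was 9.18 in KO and 9.21 in WT set 3, 9.57 and 9.18 in set 5, and 9.66 and 9.25 in set 6. The median of the gene-by-gene KO minus WT differences across the 12547 genes was -0.07 for set 3, 0.39 for set 5 and 0.42 for set 6. Counts are therefore given on the deposited scale and again after each library was centred on its own median, which removes the difference between library medians. The size of a change is relative to that shift. The depth of the libraries is unknown, and whether a group held less of an RNA per cell or fewer cells carrying it cannot be told apart.

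Promoters of 5 nuclear members on which the comparisons turn are shown here: those of Ndufa1 and Cox7a2l, which were higher in KO cells of sets 5 and 6, that of Ndufaf1, which was lower there, and those of Ndufaf4 and Atp5g1, which were lower in set 5 than in set 3. Each runs from 250 bases before to 50 bases after the start of the gene, 5′ to 3′, from RefSeq on GRCm38.p6, a build other than the GRCm39 named in the submitters' processing notes. Capitals mark matches on either strand to 7 motifs: the NRF1 core GCGCANGCG, the ETS core CCGGAAG bound by the GABP family, the YY1 core AAGATGGCG, the Myc E-box CACGTG, the HIF core ACGTG, which lies inside CACGTG, and the E-boxes CAGGTG and CAGCTG read by the E proteins that Id3 holds inactive. A match is a description and not a site of binding.
Ndufa1, chrX:37191189-37191488, minus strand: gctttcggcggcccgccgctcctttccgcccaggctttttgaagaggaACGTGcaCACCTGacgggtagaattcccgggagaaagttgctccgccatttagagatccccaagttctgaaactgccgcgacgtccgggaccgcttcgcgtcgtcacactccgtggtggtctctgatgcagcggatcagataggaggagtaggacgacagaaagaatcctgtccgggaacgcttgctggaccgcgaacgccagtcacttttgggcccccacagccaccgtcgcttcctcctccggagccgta
Cox7a2l, chr17:83514284-83514583, minus strand: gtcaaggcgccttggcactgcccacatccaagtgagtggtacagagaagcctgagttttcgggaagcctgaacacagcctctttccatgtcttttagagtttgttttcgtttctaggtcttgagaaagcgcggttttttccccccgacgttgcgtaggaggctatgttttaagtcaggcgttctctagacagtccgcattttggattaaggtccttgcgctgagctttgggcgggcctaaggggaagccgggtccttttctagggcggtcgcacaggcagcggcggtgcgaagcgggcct
Ndufaf1, chr2:119662785-119663084, minus strand: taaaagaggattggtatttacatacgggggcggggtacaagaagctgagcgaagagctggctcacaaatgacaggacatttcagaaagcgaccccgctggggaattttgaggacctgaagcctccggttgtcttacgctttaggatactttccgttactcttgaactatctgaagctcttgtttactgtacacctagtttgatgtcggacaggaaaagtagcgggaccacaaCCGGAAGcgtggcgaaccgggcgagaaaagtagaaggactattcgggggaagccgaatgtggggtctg
Ndufaf4, chr4:24897833-24898132, plus strand: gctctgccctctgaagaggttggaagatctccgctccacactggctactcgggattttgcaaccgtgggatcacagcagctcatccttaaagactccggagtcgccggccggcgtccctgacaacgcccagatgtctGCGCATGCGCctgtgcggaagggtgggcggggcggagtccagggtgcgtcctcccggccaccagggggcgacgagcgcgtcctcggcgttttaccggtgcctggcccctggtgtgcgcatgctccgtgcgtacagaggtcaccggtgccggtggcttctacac
Atp5g1, chr11:96075582-96075881, minus strand: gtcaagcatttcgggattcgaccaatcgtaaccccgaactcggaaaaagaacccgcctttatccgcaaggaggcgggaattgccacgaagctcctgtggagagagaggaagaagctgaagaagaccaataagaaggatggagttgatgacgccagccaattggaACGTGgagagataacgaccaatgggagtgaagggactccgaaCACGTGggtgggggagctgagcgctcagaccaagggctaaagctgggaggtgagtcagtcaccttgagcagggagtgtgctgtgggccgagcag
The Ndufa1 promoter holds the HIF core and, on the reverse strand, CAGGTG. None of the 7 motifs is in the Cox7a2l window. The Ndufaf1 promoter holds the ETS core, the Ndufaf4 promoter holds 2 overlapping NRF1 cores, and the Atp5g1 promoter holds the Myc E-box and 3 HIF cores, 2 of them within that E-box. A promoter was matched for 75 of the 92 nuclear members. The NRF1 core was in 28% of them, against 6.47% of all 27025 promoters, the ETS core in 24% against 9.12% and the YY1 core in 9.33% against 1.49%. CAGGTG was in 20% of the members' promoters and 20% of all promoters, CAGCTG in 6.67% against 16.1%, CACGTG in 8% against 7.24% and ACGTG in 24% against 19.7%.

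Relative to the WT set 3 mean, the median nuclear member was lower in set 5 libraries of both genotypes, while the median of all genes was higher in KO and slightly lower in WT. In KO set 5 the nuclear members' median shift was -0.29, -0.21 and -0.34 in the 3 libraries, against -0.16, -0.28 and -0.26 in WT set 5, so the genotypes overlapped. In KO set 6 it was -0.05, -0.03 and -0.06, against -0.17, -0.21 and -0.26 in WT set 6, with no overlap. The mitochondrial members' median shift was 0.07, -0.12 and -0.07 in KO set 5, against -0.26, -0.39 and -0.39 in WT set 5, also with no overlap. The shift of all genes was 0.34 to 0.36 in KO set 5, against -0.11 in each WT set 5 library. In each library of KO sets 5 and 6, and also of WT set 5, both member classes lay below the median of all genes. In WT set 6 the nuclear members lay below it in each library and the mitochondrial members above it.

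**Figure D1:**
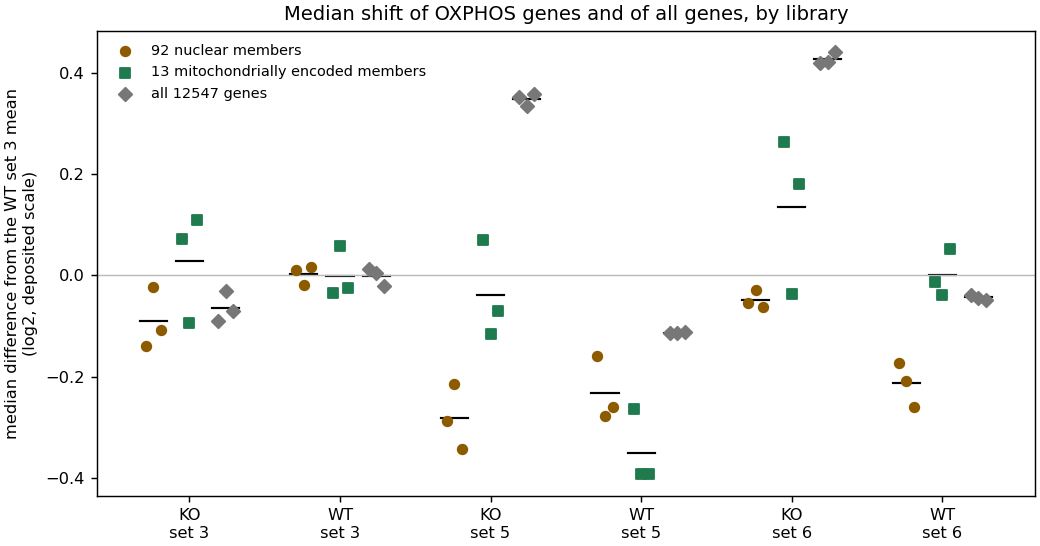
Median difference of each library from the WT set 3 mean (log2, deposited scale) over the 92 nuclear members, the 13 mitochondrially encoded members and all 12547 genes, with points for libraries and bars for group means. The gap between all genes and the nuclear members is widest in KO sets 5 and 6, where the median of all genes lies at 0.34 to 0.44. For the mitochondrial members the gaps of single libraries there overlap with those of WT set 5.

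In set 3, KO and WT cells differed little in these genes. With limma and Benjamini-Hochberg adjustment over all genes, 1 member was higher and 3 were lower in KO cells, while 6.92% of all genes were higher and 4.46% lower. After centring, 1 was higher and 2 were lower, while 7.29% of all genes were higher and 3.28% lower. Cox7a2l was 12.37, 12.48 and 12.51 in KO libraries, against 12.72, 12.61 and 12.86 in WT libraries, and fell by 0.28 (SE 0.07, adjusted p = 0.016). Atp5e, the epsilon subunit of the complex V head, was 15.14, 15.29 and 15.14 in KO libraries, against 15.42, 15.39 and 15.50 in WT libraries, and fell by 0.24 (SE 0.05, adjusted p = 0.0082). Both calls held on the deposited, centred and quantile scales, but each was lost when KO replicate 1 was left out (adjusted p = 0.0911 for Cox7a2l and 0.0504 for Atp5e) and that of Cox7a2l also without WT replicate 3 (adjusted p = 0.074). Sdhc passed on the deposited scale alone, at -0.19 (adjusted p = 0.0465), and not without any of the 6 libraries (adjusted p = 0.0712 to 0.11). The muscle isoform Cox7a1 was 7.07, 6.15 and 6.67 in KO libraries, against 6.47, 3.62 and 4.44 in WT libraries, which overlap. Its difference of 1.79 (adjusted p = 0.0455) did not pass when KO replicate 1, KO replicate 3, WT replicate 2 or WT replicate 3 was left out (adjusted p = 0.104 to 0.179). The median of the KO minus WT differences was -0.08 over the members and -0.07 over all genes.

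In set 5 the nuclear members spread widely, and most of them lay below the median shift of all genes. On the deposited scale 22 members were higher and 23 lower in KO cells, which is 21% and 21.9% of them, while 50.1% of all genes were higher and 8.08% lower. After centring 3 were higher and 75 lower, or 2.86% and 71.4%, against 24.9% and 24.7% of all genes. All 23 members that were lower on the deposited scale were nuclear, and they were also lower on the centred and quantile scales. By complex, 12 of 37 complex I subunits were lower and 5 higher on the deposited scale, and 32 were lower and 1 higher after centring. Of the complex I assembly factors 3 of 8 were lower on the deposited scale and 4 after centring, with none higher on either. The 4 complex II genes passed in neither direction on the deposited scale, and all 4 were lower after centring. In complex III, 4 of 9 were lower and 2 higher, then 7 lower and none higher. In complex IV, 6 of 16 nuclear genes were higher and none lower on the deposited scale, then 2 higher and 9 lower. In complex V, 4 of 17 were lower and 3 higher, then 16 lower and none higher.

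In set 6 the same comparison was shifted upwards on the deposited scale. There 38 members were higher and 2 lower in KO cells, or 36.2% and 1.9%, while 53.9% of all genes were higher and 4.59% lower. After centring 3 were higher and 64 lower, or 2.86% and 61%, against 18.8% and 18.5% of all genes. Complex I had 14 higher and 1 lower, complex II 3 higher and none lower, complex III 2 higher and none lower, complex IV 8 higher and none lower, and complex V 7 higher and none lower on the deposited scale. After centring the counts turned to 24 lower and 1 higher in complex I, 3 lower in complex II, 7 lower in complex III, 7 lower and 2 higher in complex IV, and 14 lower in complex V. The median nuclear member differed by 0.15 in set 6 and by -0.04 in set 5 on the deposited scale, and by -0.26 and -0.43 after centring.

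**Figure D2:**
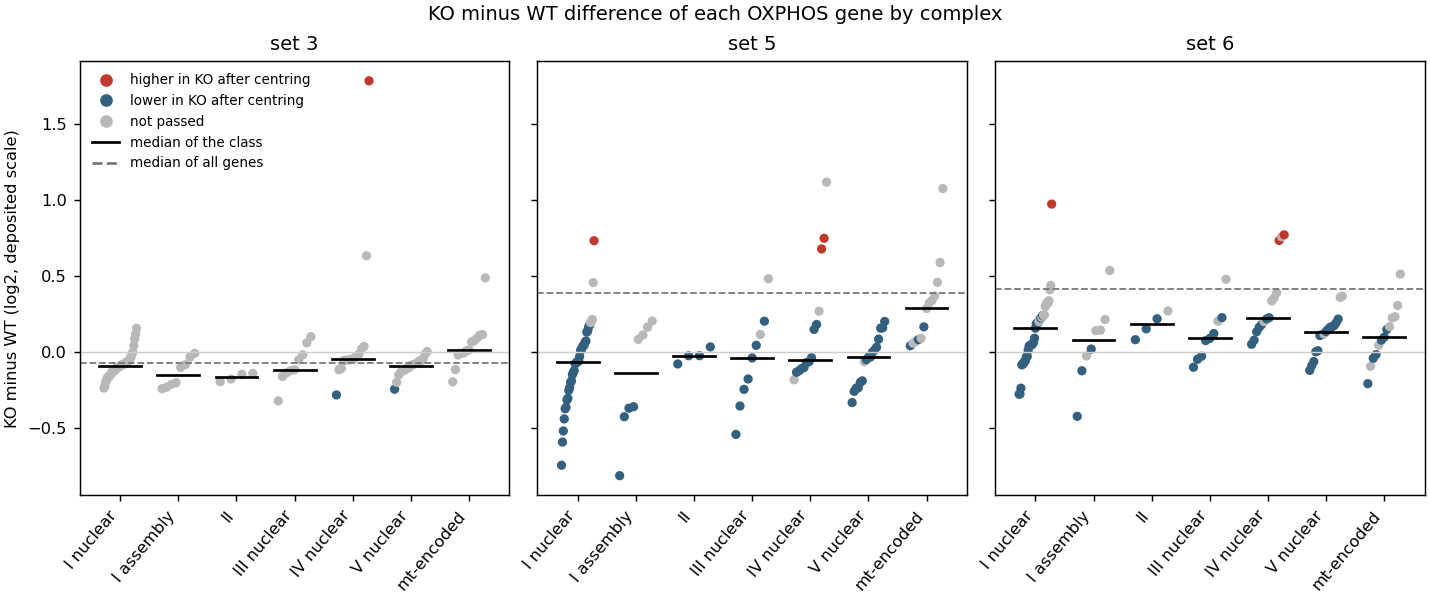
KO minus WT difference (log2, deposited scale) of the 102 members that stay off the lowest value of the table, by complex, in sets 3, 5 and 6, with red and blue points for genes higher or lower in KO after centring, black bars for class medians and a dashed line for the median of all genes. In sets 5 and 6 each class median lies below the dashed line at 0.39 and 0.42, and 3 nuclear genes (Ndufa1, Cox7a2l and Ndufa4) stand above it in red.

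Ndufa1, Cox7a2l and Ndufa4 were higher in KO cells of sets 5 and 6 on the deposited, centred and quantile scales, and no other member was. Ndufa1, an X-linked accessory subunit needed to assemble complex I, was 14.17, 14.08 and 13.97 in KO set 5, against 13.32, 13.35 and 13.35 in WT set 5, a difference of 0.73 (SE 0.07, adjusted p = 2.04e-07). In set 6 it was 14.57, 14.35 and 14.35 in KO libraries, against 13.42, 13.52 and 13.41 in WT libraries, a difference of 0.98 (SE 0.07, adjusted p = 3.56e-08). The groups did not overlap in either set, while in set 3 they did. Cox7a2l was 14.03, 13.91 and 14.09 in KO set 5, against 13.29, 13.32 and 13.38 in WT set 5, and 14.02, 13.97 and 13.96 in KO set 6, against 13.15, 13.26 and 13.34 in WT set 6. Its differences were 0.68 (SE 0.07, adjusted p = 6.14e-07) and 0.74 (SE 0.07, adjusted p = 4.41e-07), with the sign opposite to that in set 3. Ndufa4 was 13.45, 13.37 and 13.16 in KO set 5, against 12.74, 12.65 and 12.33 in WT set 5, a difference of 0.75 (SE 0.13, adjusted p = 9.42e-05). In set 6 it was 13.76, 13.44 and 13.62 in KO libraries, against 13.10, 12.80 and 12.59 in WT libraries, a difference of 0.77 (SE 0.13, adjusted p = 7.87e-05). None of these 6 calls was lost when any replicate of the compared groups was left out.

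Ndufaf1, a chaperone of the complex I assembly intermediate, was the nuclear member with the lowest called difference in set 5. It was 8.66, 8.71 and 8.74 in KO set 5, against 9.70, 9.44 and 9.40 in WT set 5, and fell by 0.81 (SE 0.12, adjusted p = 3.32e-05). In set 6 it was 9.30, 9.11 and 9.03 in KO libraries, against 9.77, 9.49 and 9.44 in WT libraries, and fell by 0.42 (SE 0.12, adjusted p = 0.00779). The groups did not overlap in either set. Ndufb2, an accessory subunit of the membrane arm of complex I, was 11.02, 11.39 and 10.75 in KO set 5, against 11.84, 11.77 and 11.77 in WT set 5, and fell by 0.74 (SE 0.16, adjusted p = 0.000684). In set 6 it was 11.16, 11.44 and 11.30 in KO libraries, against 11.98, 11.44 and 11.28 in WT libraries, with overlap. Uqcrq, a small subunit of complex III, was 13.53, 13.80 and 13.79 in KO set 5, against 14.30, 14.16 and 14.28 in WT set 5, and fell by 0.54 (SE 0.10, adjusted p = 0.000175). Ndufa12, an accessory subunit of complex I, was 11.95, 12.17 and 12.00 in KO set 5, against 12.69, 12.53 and 12.45 in WT set 5, and fell by 0.52 (SE 0.09, adjusted p = 0.000118). In set 6 Ndufa12 fell by 0.24 (adjusted p = 0.0329) with overlapping groups, and that call was lost without KO replicate 3, WT replicate 1 or WT replicate 2 (adjusted p = 0.0987 to 0.204). Ndufc1 fell by 0.59 in set 5 (SE 0.23, adjusted p = 0.0398), with overlapping groups, and did not pass when KO replicate 2, KO replicate 3, WT replicate 1 or WT replicate 3 was left out (adjusted p = 0.0689 to 0.191).

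**Figure D3:**
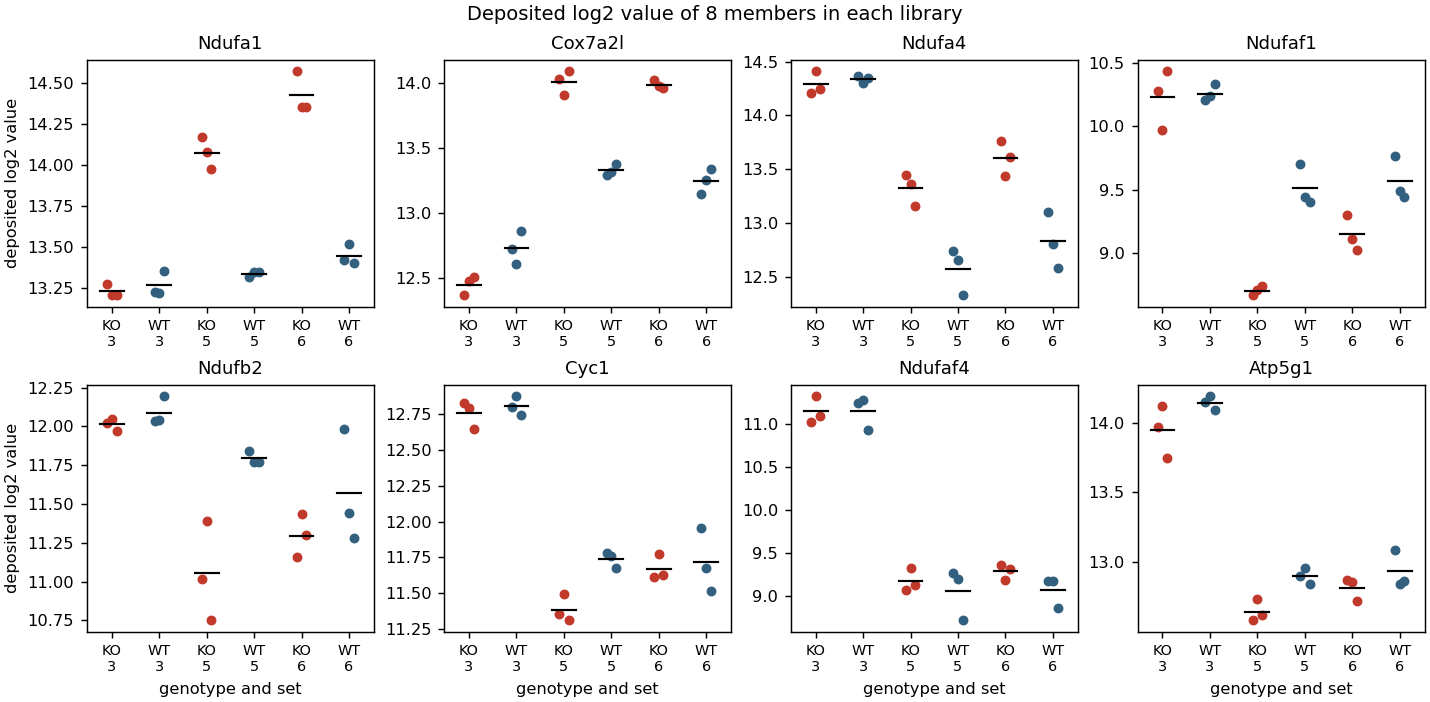
Deposited log2 value of 8 nuclear members in each library, with KO in red and WT in blue, points for libraries and bars for group means, and a vertical scale of its own for each gene that does not start at 0. Ndufa1 lies at 13.97 to 14.57 in KO sets 5 and 6, against 13.32 to 13.52 in WT, while Ndufaf4 and Atp5g1 separate set 3 from sets 5 and 6 in both genotypes.

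Of the 13 mitochondrially encoded genes, 12 ranked among the 161 highest values in each library, while mt-Nd6, which is read from the opposite strand, ranked between 623 and 1372. mt-Co1, the catalytic core of complex IV, was the highest of all genes in the 3 WT set 5 and the 3 WT set 6 libraries. With ranked values coinciding within groups, mt-Co1 had a standard deviation of 0 there, and the errors of the highest genes can be understated. In set 5, 6 of the 13 were higher in KO cells on the deposited scale, while 50.1% of all genes were higher. After centring none was higher and 3 were lower (mt-Nd1, mt-Nd2 and mt-Atp6), against 24.9% and 24.7% of all genes. In set 6, 3 were higher on the deposited scale, while 53.9% of all genes were higher. After centring 6 were lower and none higher in that set, against 18.5% and 18.8% of all genes. mt-Co2, which carries the copper site that takes electrons from cytochrome c, was 18.47, 18.12 and 18.29 in KO set 5, against 16.64, 17.44 and 17.58 in WT set 5, and differed by 1.08 (SE 0.29, adjusted p = 0.00467). The groups did not overlap, but after centring the difference of 0.69 did not pass (adjusted p = 0.0611), and in WT set 3 the gene ranged as widely, at 17.60, 18.05 and 16.57. mt-Nd5, a proton-pumping subunit of complex I, was 16.29, 15.91 and 16.23 in KO set 5, against 15.56, 15.58 and 15.51 in WT set 5, and differed by 0.59 (adjusted p = 9.05e-05), or by 0.20 after centring, which did not pass. mt-Nd4 differed by 0.46, mt-Co1 by 0.37, mt-Nd4l by 0.33 and mt-Cytb, the complex III core, by 0.29 on the deposited scale, and none of these passed after centring, where the signs of mt-Co1, mt-Nd4l and mt-Cytb turned. The mt-Nd4l call was also lost without KO replicate 1 or WT replicate 2 or 3 (adjusted p = 0.0521 to 0.0802). In set 6 the 3 calls were mt-Co3 at 0.51 (adjusted p = 0.0409), lost without any library but KO replicate 2, mt-Nd5 at 0.31 (adjusted p = 0.014), lost without KO replicate 1 or 3, and mt-Cytb at 0.23 (adjusted p = 0.0216), lost with KO replicate 1, KO replicate 3 or WT replicate 3 left out. The adjusted p of these 3 without those libraries was 0.0541 to 0.137, and 0.10, -0.10 and -0.19 were the centred differences of mt-Co3, mt-Nd5 and mt-Cytb, none of which passed.
mt-Nd1, the membrane-arm subunit nearest the quinone site, was 17.30 in each KO set 5 library, against 17.38, 17.22 and 17.17 in WT set 5, a difference of 0.04 that did not pass, and -0.35 after centring (adjusted p = 0.000444). mt-Nd4l and mt-Nd4 overlap by 7 bases, mt-Atp8 and mt-Atp6 by 43, mt-Atp6 and mt-Co3 by 1, and mt-Nd6, on the opposite strand, overlaps mt-Nd5 by 14. Reads of overlapping neighbours, of nuclear copies of mitochondrial sequence and of processed pseudogenes of the nuclear subunits may be shared, so these genes' values are uncertain to that extent.

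**Figure D4:**
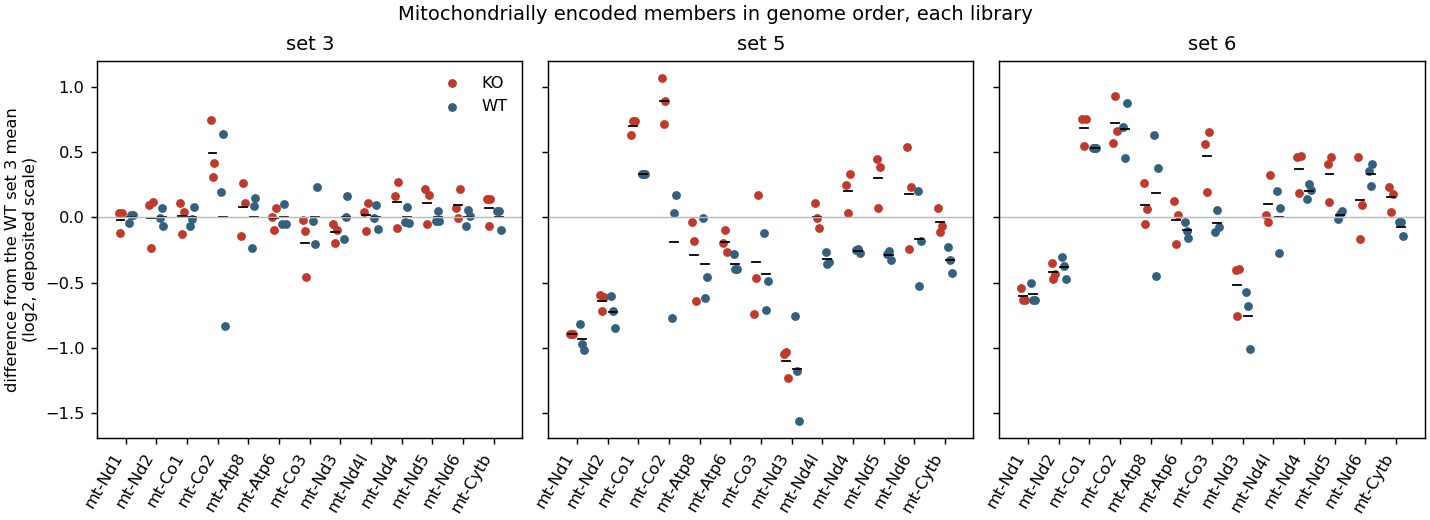
Difference of each library from the WT set 3 mean (log2, deposited scale) for the 13 mitochondrially encoded genes in their order along the genome, with KO in red and WT in blue and bars for group means. In set 5 mt-Nd1, mt-Nd2 and mt-Nd3 lie low in both genotypes while mt-Co1 lies high in both, and mt-Co2 spreads most among the WT libraries.

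Succinate dehydrogenase gave calls in set 6 whose sign turned after centring. Sdha, the flavoprotein, was 12.15, 12.29 and 12.13 in KO set 6, against 12.11, 11.98 and 12.03 in WT set 6, a difference of 0.16 on the deposited scale (adjusted p = 0.0313) that turned to -0.26 after centring (adjusted p = 0.00268) and did not pass without KO replicate 2 or WT replicate 2 or 3 (adjusted p = 0.0732 to 0.156). Sdhb, the iron-sulphur subunit, differed by 0.27 in set 6 (adjusted p = 0.00589) and by -0.14 after centring, which did not pass. Sdhc, a membrane anchor, differed by 0.22 in set 6 (adjusted p = 0.0044) and by -0.19 after centring (adjusted p = 0.0186). In set 5 the 4 genes lay between -0.08 and 0.04. Of the ubiquitous complex IV subunits, Cox4i1 differed by 0.27 in set 5 (adjusted p = 0.000188) and by 0.36 in set 6 (adjusted p = 1.52e-05) on the deposited scale, and by -0.12 and -0.05 after centring, neither of which passed. The alternative isoforms Cox4i2, of hypoxic lung and other tissues, and Cox6a2, of muscle and heart, reached the lowest values of the table in 6 and 4 libraries and gave no call between genotypes on the deposited scale. Cox6b2, of testis, was 8.94, 8.13 and 7.25 in KO set 5, against 7.31, 6.72 and 6.93 in WT set 5, and its difference of 1.12 (SE 0.47, adjusted p = 0.0494) had overlapping groups, and passed neither after centring nor without KO replicate 1 or 2 or any WT replicate (adjusted p = 0.0546 to 0.235).

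Whether the KO effect in sets 5 and 6 together departed from that in set 3 was tested as an interaction. Same-numbered libraries of sets 5 and 6 deviated together within a genotype, and this fit counted them as independent. The standard errors of this interaction may therefore be too small. On the deposited scale 28 members had a higher effect and 2 a lower one, while 49.1% of all genes had a higher and 6.39% a lower effect, and the median over all genes was 0.43. After centring 2 were higher and 55 lower, against 19.6% and 18.5% of all genes. Cox7a2l (0.99, SE 0.09, adjusted p = 3.79e-07) and Ndufa1 (0.89, SE 0.08, adjusted p = 5.93e-07) were higher, and Cox7a1 (-1.68, SE 0.67, adjusted p = 0.0427) and Ndufaf1 (-0.58, SE 0.15, adjusted p = 0.0036) lower, on the deposited, centred and quantile scales. The call of Cox7a1 was lost in 11 of the 18 fits that left out 1 library (adjusted p = 0.0547 to 0.158 in those). Between set 6 and set 5 the KO effect, fitted without a replicate block, gave no call by limma among the members, nor in all genes (0%), while at an unadjusted p under 0.05 there were 30 members on the deposited scale and 23 after centring, and 1320 and 1246 genes in all. With a replicate block within each genotype, an alternative chosen after seeing the data, again no member was called, against 0.0478% of all genes higher and 0.0399% lower, and 39 members and 1898 genes had an unadjusted p under 0.05.

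Between set 5 and set 3 the complex I assembly factors had the lowest median of the complexes and their assembly class, in both genotypes. In KO cells 21 members were higher and 49 lower in set 5, while 49.8% of all genes were higher and 23.4% lower. After centring 9 were higher and 80 lower, or 8.57% and 76.2%, against 35.6% and 35.7% of all genes. In WT cells 12 were higher and 54 lower, while 29.3% of all genes were higher and 38.3% lower, and after centring 13 were higher and 51 lower, against 30.5% and 36.8%. Lower in set 5 in both genotypes, on the deposited, centred and quantile scales, were 41 members, 38 nuclear ones and mt-Nd1, mt-Nd2 and mt-Nd3. Higher in both were 5: Cox4i2, Cox7a2l, Ndufaf3, Ndufb11 and Ndufv3. The share of all genes that met this joint rule is not given here, so these joint counts have no background beside them. Over the 89 nuclear members off the lowest value the KO and WT differences correlated at r = 0.831 (Spearman rho = 0.878), over the 13 mitochondrial ones at r = 0.956 (rho = 0.945) and over all genes at r = 0.745. These are correlations across genes of the same libraries, with no p-value.
Markers of other cells also moved between these sets. The erythroid list summed to 4.2 to 5.2 in KO set 5, against 11.6 to 13.8 in KO set 3, and to 5.9 to 6.1 in WT set 5, against 8.2 to 9.2 in WT set 3. The NK cell list (4 of 4 measured) summed to 7.4 to 8.9 in KO set 5, against 9.1 to 9.7 in KO set 3, and to 8.4 to 8.6 in WT set 5, against 9.1 to 10.4 in WT set 3, with Ncr1 at or near the lowest value of the table in both set 5 groups. The B cell list summed to 6.8 to 7.0 in KO set 5, against 7.7 to 10.7 in KO set 3, and to 5.4 to 5.7 in WT set 5, against 5.8 to 7.1 in WT set 3. The granulocyte and mast cell list summed to 3.4 to 5.2 in KO set 5, against 7.4 to 8.0 in KO set 3, with overlap in WT cells, and Itgax, the measured dendritic cell marker of 5, was 1.0 to 2.2 in KO set 5, against 4.0 to 4.8 in KO set 3, and 1.0 to 1.1 in WT set 5, against 3.3 to 4.8 in WT set 3. The CD8 T cell list (2 of 2) lay lower in set 5 than in set 3 in each genotype, without overlap, while the macrophage and monocyte list and the CD4 T cell list lay higher in each, also without overlap. Their part in the set 5 minus set 3 results was not tested.

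**Figure D5:**
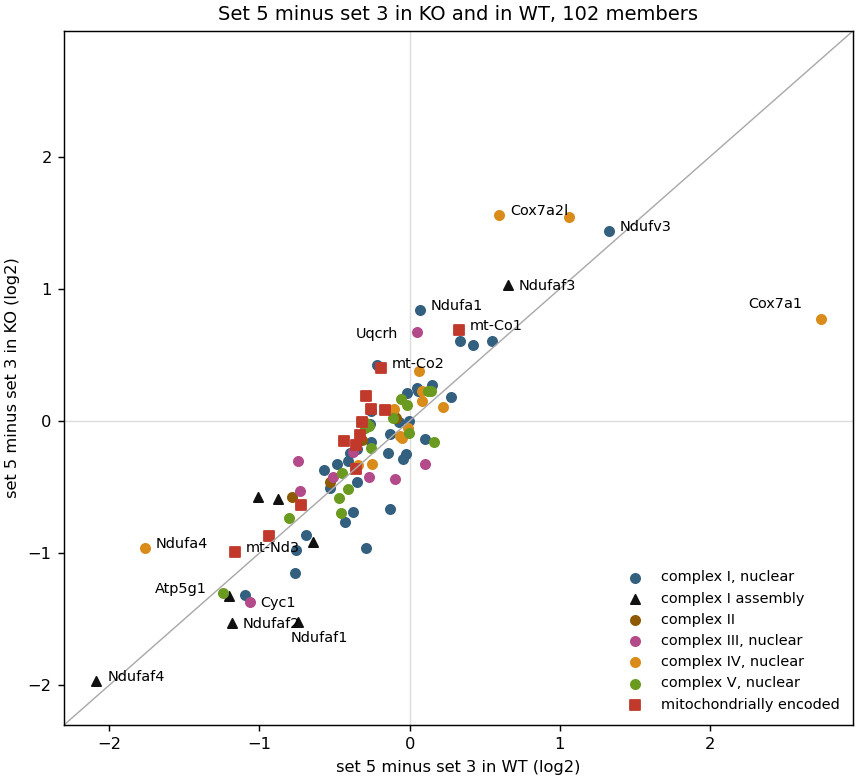
Set 5 minus set 3 difference (log2, deposited scale) of 102 members in KO (vertical) against WT (horizontal), coloured by complex, with the diagonal of equal change. The assembly factors Ndufaf4, Ndufaf2, Ndufaf1 and Ndufaf6 lie lowest in KO together with Cyc1, and Cox7a2l, Ndufa1 and Uqcrh lie above the diagonal.

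Of the 8 complex I assembly factors 7 were lower in set 5 and 1 was higher, in KO and in WT cells, with medians of -1.12 and -0.94 on the deposited scale. There 23.4% of all genes were lower and 49.8% higher in KO cells, and 38.3% lower and 29.3% higher in WT cells. The calls of these 8 were the same on the centred and quantile scales. Ndufaf4, which acts in assembly of the peripheral arm, was 9.07, 9.33 and 9.13 in KO set 5, against 11.03, 11.32 and 11.09 in KO set 3, and fell by 1.97 (SE 0.14, adjusted p = 3.79e-09). In WT cells it was 9.27, 9.20 and 8.72 in set 5, against 11.24, 11.28 and 10.93 in set 3, and fell by 2.09 (SE 0.14, adjusted p = 3.69e-09). Ndufaf2 fell by 1.53 in KO cells and fell by 1.18 in WT cells. Ndufaf6 fell by 1.32 in KO cells and Ndufaf1 fell by 1.52, and both were called lower in WT cells too. Ndufaf3 went the other way, at 9.34, 9.20 and 9.16 in KO set 5, against 8.25, 8.16 and 8.20 in KO set 3, and rose by 1.03 (SE 0.12, adjusted p = 6.16e-07) in KO and by 0.65 (adjusted p = 0.000112) in WT cells.

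Among the subunits, the calls on the deposited scale were mostly lower in complex III and went both ways in complex IV. On that scale 49.8% of all genes were higher and 23.4% lower in KO cells, and 29.3% and 38.3% in WT cells. In KO cells the differences of Cox6b1, Cox6a1, Cox6c, Cox8a and Cox4i1 were above 0 on that scale and below 0 after centring. The counts by complex below are on the deposited scale alone. In complex III 8 of 9 were lower and 1 was higher in KO cells, and 6 were lower and none higher in WT cells. Cyc1, cytochrome c1, was 11.35, 11.49 and 11.31 in KO set 5, against 12.83, 12.79 and 12.65 in KO set 3, and fell by 1.37 (SE 0.09, adjusted p = 1.45e-09). In complex V, 6 of 17 were lower and 3 higher in KO cells, and 9 were lower and none higher in WT cells. Atp5g1, which encodes the c-ring subunit together with Atp5g2 and Atp5g3, was 12.90, 12.96 and 12.85 in WT set 5, against 14.15, 14.19 and 14.09 in WT set 3, and fell by 1.24 (SE 0.09, adjusted p = 3.83e-09). In complex I, 18 of 37 were lower in each genotype, while 10 were higher in KO and 6 in WT cells. The core subunits, which hold the redox centres, gave no higher call in either genotype, with 5 of 7 lower in KO and 7 of 7 in WT cells. Ndufv3, an accessory subunit, rose by 1.43 in KO and 1.33 in WT cells, and its WT set 3 libraries, at 11.92, 11.97 and 12.90, spread more than its WT set 5 libraries, at 13.58, 13.56 and 13.64. In complex IV, 4 of 16 were lower and 5 higher in KO cells, and 3 lower and 4 higher in WT cells. Ndufa4 fell by 0.96 in KO and by 1.76 in WT cells, and Cox7a2l rose by 1.56 in KO and by 0.60 in WT cells. Cox7a1, the muscle isoform, was 7.77, 7.58 and 7.39 in WT set 5, against 6.47, 3.62 and 4.44 in WT set 3, and rose by 2.74 (adjusted p = 0.000326). Of 5 muscle markers 1 was measured, and it was 4.1 to 5.8 in KO set 5, against 1.0 to 3.6 in KO set 3, and 4.4 to 5.1 in WT set 5, against 1.0 to 2.3 in WT set 3, and its part in the result was not tested. Cox4i2 was at or near the lowest value of the table in 5 of the 6 set 3 libraries, so its called difference has no measured size.

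The mitochondrial genome did not move as a block between set 5 and set 3. mt-Nd3 fell by 0.99 in KO (adjusted p = 4.23e-05) and by 1.16 in WT cells (adjusted p = 1.01e-05), mt-Nd1 by 0.87 and by 0.93, and mt-Nd2 by 0.64 and by 0.72. mt-Nd1 was 17.30 in each KO set 5 library, against 18.22, 18.07 and 18.22 in KO set 3, and 17.38, 17.22 and 17.17 in WT set 5, against 18.15, 18.21 and 18.21 in WT set 3. mt-Co1 was 18.91, 19.01 and 19.01 in KO set 5, against 18.39, 18.15 and 18.32 in KO set 3, and rose by 0.69 (SE 0.07, adjusted p = 3.04e-07). In WT cells mt-Co1 was 18.61 in each set 5 library, against 18.21, 18.26 and 18.35 in set 3, and rose by 0.33 (adjusted p = 0.000832). The KO rise of mt-Co1 was no longer called on the quantile scale. In WT cells 8 of the 13 were lower in set 5 on the deposited scale, while 38.3% of all genes were lower. Of these, 4 (mt-Nd1, mt-Nd2, mt-Nd3 and mt-Atp6) were lower on the centred and quantile scales too. The WT calls of mt-Nd4, mt-Nd4l and mt-Nd5 were each lost in at least 1 fit without a single library (adjusted p = 0.0512 to 0.0973). In KO cells 3 of the 13 were lower on the deposited scale and 9 after centring, against 23.4% and 35.7% of all genes.

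Between sets 6 and 5 fewer members were called than between sets 5 and 3, and no member passed the test of the difference between the genotypes. In KO cells 23 members were higher and none lower in set 6, 20 of the 92 nuclear and 3 of the 13 mitochondrial ones, while 9.93% of all genes were higher and 2.03% lower. After centring 8 were higher and 1 lower, against 3.87% and 3.64% of all genes. Equal replicate numbers deviated together in these 2 sets within each genotype, and with a replicate block within each genotype 36 members were higher and none lower in KO cells, against 14.4% and 3.32% of all genes. Cox5a, a complex IV subunit, was 14.60, 14.63 and 14.65 in KO set 6, against 14.21, 14.32 and 14.04 in KO set 5, and rose by 0.44 (SE 0.08, adjusted p = 0.00322). Uqcrq rose by 0.46 (adjusted p = 0.00766). Ndufaf1, mt-Nd3 and mt-Co3 were also called higher in KO set 6, and each call was lost without some single libraries (adjusted p = 0.0608 to 0.121). Cox5a, Cox6a1, Atp5pb, Ndufa1 and Ndufb8 were higher on the deposited, centred and quantile scales. In WT cells 3 members were higher and none lower, while 3.01% of all genes were higher and 0.359% lower, and after centring 2 were higher and none lower, against 1.49% and 0.566%. All 3 were mitochondrial complex I subunits: mt-Nd4 at 16.85, 16.96 and 16.91 in WT set 6, against 16.45, 16.46 and 16.43 in WT set 5, rose by 0.46 (SE 0.10, adjusted p = 0.0158), mt-Nd1 by 0.35 (adjusted p = 0.00935) and mt-Nd2 by 0.34 (adjusted p = 0.0444). With the block within each genotype 6 were higher and 1 lower, against 5.05% and 0.853% of all genes. The call of mt-Nd2 was lost with any replicate of these groups left out (adjusted p = 0.063 to 0.172), and that of mt-Nd4 without set 5 replicate 1 or 3 or set 6 replicate 2 or 3 (adjusted p = 0.0531 to 0.0775). The median mitochondrial member differed by 0.35 in WT and 0.17 in KO cells, the median nuclear one by 0.00 and 0.18.

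Genes that act on oxidative phosphorylation without being members were read from 10 lists. Of 12 measured regulators, 11 were higher and 1 lower in KO cells in set 5 and again in set 6 on the deposited scale, where 50.1% of all genes were higher in set 5 and 53.9% in set 6. After centring 6 were higher and 1 lower in set 5 and 4 higher and 1 lower in set 6, beside 24.9% and 18.8% of all genes higher. The median regulator differed by 0.60 in set 5 and 0.57 in set 6 on the deposited scale, and by 0.21 and 0.16 after centring. Epas1, a subunit of the hypoxia-inducible factors, was 11.83, 11.29 and 11.71 in KO set 5, against 5.71, 5.63 and 5.80 in WT set 5, a difference of 5.89 (adjusted p = 4.76e-08), and differed by 6.36 in set 6 and 2.69 in set 3. Hif1a differed by 1.56 in set 5 and 1.42 in set 6. Esrra, a nuclear receptor that activates respiratory genes, differed by 1.16 and 0.87, and all 4 of these differences also passed after centring. Gabpa, Gabpb1 and Gabpb2, the GABP subunits, differed by 0.49 to 0.67 in set 5 and Nrf1 by 0.31, and of these only Gabpb1 and Gabpb2 passed after centring in set 5, and Gabpb2 alone in set 6. Yy1 differed by 0.65 in set 5 and 0.51 in set 6, Arnt by 0.49 and 0.61, and the coactivators Ppargc1b by 0.88 and 0.86 and Pprc1 by 0.52 and 0.47. After centring Yy1 passed in set 5 (0.26, adjusted p = 0.00414) and not in set 6 (0.09, adjusted p = 0.293), and Arnt, Ppargc1b and Pprc1 passed in neither set (adjusted p = 0.104 to 0.835). Myc, which drives mitochondrial biogenesis in activated T cells, fell by 0.48 in set 5 (adjusted p = 0.05 after rounding, just inside the threshold) and by 0.55 in set 6 (adjusted p = 0.0279). Between set 5 and set 3 Myc fell by 1.26 in KO and fell by 1.03 in WT cells, and Pprc1 fell by 1.19 in KO and fell by 1.94 in WT cells.

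Cycs, cytochrome c, was lower in set 5 than in set 3, and so were most genes of mitochondrial RNA processing, mitochondrial DNA upkeep, the citric acid cycle, inner-membrane proteins and coenzyme Q synthesis, while complex IV assembly and pyruvate entry went both ways. Over all genes 23.4% were lower and 49.8% higher in KO cells, and 38.3% lower and 29.3% higher in WT cells, on the deposited scale. Cycs fell by 0.98 in KO and by 0.57 in WT cells between set 5 and set 3. Between genotypes it fell by 0.35 in KO cells of set 5 (adjusted p = 0.00236), and differed by -0.03 in set 6 (adjusted p = 0.801), or by -0.44 after centring (adjusted p = 0.000967). Its haem lyase Hccs differed by 0.24 in set 5 and 0.56 in set 6, and neither passed after centring, and Cyct, the testis form, passed in no comparison between genotypes. Of 22 genes of mitochondrial RNA processing, 15 were lower and 3 higher in set 5 than in set 3 in KO cells, and 20 lower and none higher in WT cells. After centring, 19 were lower and none higher in KO, and 20 lower and 1 higher in WT cells. Of 19 genes of mitochondrial DNA transcription and replication, 11 were lower and 5 higher in KO, and 16 lower and 2 higher in WT cells, or 13 and 3 in KO and 16 and 2 in WT cells after centring. Top1mt, the mitochondrial topoisomerase, fell by 3.05 in KO and fell by 3.09 in WT cells, and Lrpprc, which stabilizes mitochondrial messages, fell by 1.28 in KO and fell by 1.51 in WT cells. Of 18 citric acid cycle genes 13 were lower in each genotype, with 3 higher in KO and 2 in WT cells, and after centring 15 were lower and 2 higher in KO, and 13 lower and 3 higher in WT cells. Of 18 genes of inner-membrane protein upkeep, 12 were lower in KO and 15 in WT cells, with 2 higher in each, and the chaperonin Hspd1 fell by 2.81 in KO and by 2.26 in WT cells. Centring gave 16 lower and 1 higher of these in KO, and left 15 and 2 in WT cells. Of 13 genes of coenzyme Q synthesis, 9 were lower and 2 higher in KO, and 10 lower and none higher in WT cells, with 10 lower in each genotype after centring. Of 22 measured assembly factors of complexes I, II, III and V outside the members, 15 were lower and 4 higher in KO, and 17 lower and 1 higher in WT cells, or 17 and 1 in KO and 15 and 1 in WT cells after centring. Of 21 assembly factors of complex IV, 8 were lower and 8 higher in KO, and 10 lower and 4 higher in WT cells, or 11 and 2 in KO and 10 and 4 in WT cells after centring. Of 12 genes of pyruvate entry, 5 were lower and 3 higher in KO, and 6 lower and 1 higher in WT cells, or 8 and 2 in KO and 6 and 1 in WT cells after centring, when 35.7% of all genes were lower in KO and 36.8% in WT cells.

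Several of these genes separated the genotypes in sets 5 and 6 on the deposited and centred scales. Sco1, a copper chaperone of complex IV, was 10.72, 10.25 and 10.13 in KO set 5, against 8.87, 8.93 and 8.65 in WT set 5, a difference of 1.55 (adjusted p = 2.59e-07), and differed by 1.45 in set 6. Polg, the mitochondrial DNA polymerase, was 11.82, 11.43 and 11.44 in KO set 5, against 9.81, 9.91 and 10.16 in WT set 5, a difference of 1.60 (adjusted p = 8.68e-08), and differed by 1.12 in set 6. Uqcc3, a complex III assembly factor, differed by 1.11 and 0.81, Tk2, the mitochondrial thymidine kinase, by 1.26 and 1.01, and Pdk2, an inhibitor of pyruvate dehydrogenase, by 1.19 and 1.22. Taco1, a translational activator of mt-Co1, fell by 0.69 in set 5 and by 0.44 in set 6, Hspd1 by 0.64 and by 0.42, and the prohibitin Phb by 0.83 and by 0.46. In set 3 Pdha1 fell by 0.52 in KO cells (adjusted p = 0.000481), Bcs1l by 0.68 (adjusted p = 0.00842) and Coq2 by 0.41 (adjusted p = 0.00584). These calls held on the deposited, centred and quantile scales. Ptcd2 fell by 0.26 in set 3 (adjusted p = 0.0355) on the deposited scale alone. On that scale 4.46% of all genes were lower in set 3.

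In the authors' deposited table, which calls a gene only past a 1.2-fold change, no member was called in set 3, while 3.26% of all genes were higher and 0.654% lower. In set 5 the authors' deposited table has 7 members higher and 4 lower, against 34% and 3.79% of all genes. The 7 are Ndufa1, Ndufa4, Ndufa6, Cox7a2l, Uqcrh, mt-Co2 and mt-Nd5, and the 4 are Ndufaf1, Ndufb2, Ndufa12 and Uqcrq. In set 6 the authors' deposited table has 5 members higher and none lower, against 33.1% and 2.07% of all genes: Ndufa1, Ndufa4, Cox7a2l, Uqcrh and Ndufaf3. Between sets 6 and 5 the authors' deposited table calls no member in either genotype, against 0.462% of all genes higher and 0.143% lower in KO and 0.638% and 0.0558% in WT cells, and the 23 and 3 members called above had no minimum fold to pass.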

How the data were processed

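Polyadenylated RNA was sequenced from the 18 libraries with a strand-marking kit, per the labels' protocols, and Salmon 1.9.0, edgeR, limma and GRCm39 are named in the submitters' processing notes, with no role or order. The authors deposited log2 values per gene, with the normalization not given in the sources used here, and a table of their contrasts with log2 fold changes, a moderated t as a score, and a p-value and adjusted p-value per gene, per the file headers. All columns of both tables were mapped and none was left out. No counts are in these tables, so depth is unknown. The values were fitted with limma 3.58.1 (R 4.3.3) as 6 group means over 18 libraries with a variance trend, with no filter, 12 residual degrees of freedom and Benjamini-Hochberg adjustment over 12547 genes, and a gene was called at an adjusted p under 0.05. The alternatives were centring each library on its median, quantile normalization, adding 1 on the linear scale, a mean log2 value of at least 6, the compared groups alone, no variance trend, a minimum fold of 1.2, a replicate block and leaving out each library.

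Same-numbered libraries of sets 6 and 5 deviated together within a genotype, with correlations of 0.22 to 0.34 in KO and 0.12 to 0.16 in WT against a limit of 0.1, so their block is printed beside those counts. Other pairs of groups fell short of that limit in at least 1 replicate number and were treated as unpaired. Between WT sets 5 and 3 equal numbers correlated at 0.069 to 0.074, above the -0.049 to -0.03 of unequal numbers. Between KO sets 5 and 3 the ranges were 0.025 to 0.15 and -0.15 to 0.061. Whether those libraries were paired is therefore not settled. Members, related lists, motifs and tests were chosen with earlier results of these data known. Chosen for naming were every mitochondrial gene, the succinate dehydrogenase genes, complex IV isoforms, per comparison the 5 called members with the largest difference in each direction and the extremes of each complex, and, of the related lists, regulators, cytochrome c genes and the called genes with the smallest adjusted p. Not every gene and comparison so chosen is printed. List genes named between set 5 and set 3 were chosen after their values were seen. Promoters came from RefSeq on GRCm38.p6, matched by symbol.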

Additional observations from a re-analysis of the deposited data

Results flagged for a closer look

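The KO minus WT difference of sets 5 and 6 averaged departed from that of set 3 for 28 members upwards and 2 downwards by limma's test of that interaction, over all 18 libraries with adjustment over all genes. On the same deposited scale 49.1% of all genes departed upwards and 6.39% downwards. Given here are the 5 members with the largest upward interaction and both downward ones. Cox7a2l had an interaction of 0.99 (adjusted p = 3.79e-07), with KO libraries above WT libraries in sets 5 and 6 and below them in set 3. Ndufa1 had 0.89 (adjusted p = 5.93e-07), Ndufa4 had 0.81 (adjusted p = 0.000347), Uqcrh had 0.62 (adjusted p = 1.16e-05) and Ndufa6 had 0.61 (adjusted p = 0.000133). Ndufaf1 had -0.58 (adjusted p = 0.0036) and Cox7a1 had -1.68 (adjusted p = 0.0427). On centred values the interactions of Ndufa4, Uqcrh and Ndufa6 were 0.39, 0.19 and 0.19 and did not pass, while those of Cox7a2l, Ndufa1, Ndufaf1 and Cox7a1 did. The median interaction over all genes was 0.43 on the deposited scale. Same-numbered libraries of sets 5 and 6 deviated together but were counted as independent, so the errors behind these interactions may be too small. Groups of 3 libraries are too small for a test of single outlying values.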

How the results depend on the processing

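The scaling decided most counts. Against 22 higher and 23 lower members in set 5 (KO minus WT), centring gave 3 and 75 and quantile normalization 4 and 74. Against 38 and 2 in set 6 they gave 3 and 64 (centred) and 3 and 67 (quantile). For set 5 minus set 3 in KO, 21 and 49 became 9 and 80 (centred) and 8 and 80 (quantile), and for the interaction 28 and 2 became 2 and 55 (centred) and 2 and 62 (quantile). For set 6 minus set 5 in KO, 23 and 0 became 8 and 1 (centred) and 5 and 1 (quantile). With a minimum fold of 1.2 the counts were 0 and 0 in set 3, 7 and 4 in set 5, 5 and 0 in set 6, 12 and 31 for set 5 minus set 3 in KO, 6 and 28 in WT, 5 and 0 for the interaction, and 0 higher for set 6 minus set 5 in KO and in WT. The shares of all genes in this minimum-fold fit are not given here. In set 3 no member was higher under quantile normalization, without a variance trend or with the compared groups alone, where none was lower either. With the compared groups alone, 1 member was lower in set 6 and 8 were higher for set 6 minus set 5 in KO. Without a variance trend 1 was lower in set 6 and 1 for the interaction. A replicate block within each genotype gave 36 higher for set 6 minus set 5 in KO, and 6 higher and 1 lower in WT, where a replicate block over both genotypes gave 5 higher. A replicate block moved no other count of calls by over 1.5 times, and for the KO effect of set 6 minus set 5 the block within each genotype, chosen after seeing the data, gave 0 higher and 0 lower, as without it. Leaving out 1 library gave 0 to 1 higher and 0 to 7 lower in set 3, 12 to 20 lower in set 5, 1 to 3 lower in set 6, 11 to 27 higher for set 6 minus set 5 in KO and 1 to 2 in WT, and 1 to 5 lower for the interaction. The nuclear minus mitochondrial median of the differences was -0.332 in set 5 (KO minus WT), -0.191 under quantile normalization and -0.399 to -0.233 with 1 library left out, and for set 5 minus set 3 in WT 0.0748, -0.0133 under quantile normalization and 0.0577 to 0.179 with 1 library left out. The cause of these changes was not tested. For KO minus WT in set 5, the centred differences of the opposite sign were Sdha (-0.35), mt-Nd1 (-0.35), mt-Nd2 (-0.31), Cox6b1 (-0.24), mt-Atp6 (-0.22), Cox8a (-0.21), Cox4i1 (-0.12), mt-Cytb (-0.10), mt-Nd4l (-0.063) and mt-Co1 (-0.019). For KO minus WT in set 5, the quantile differences of the opposite sign were Sdha (-0.34), mt-Nd1 (-0.33), Cox6b1 (-0.23), mt-Atp6 (-0.37), Cox8a (-0.23), Cox4i1 (-0.13), mt-Cytb (-0.10), mt-Nd4l (-0.049) and mt-Co1 (-0.23). For KO minus WT in set 6, the centred differences of the opposite sign were Cox7b (-0.36), Cox5a (-0.33), mt-Atp6 (-0.33), Sdhd (-0.33), mt-Nd4l (-0.31), Cox7c (-0.28), mt-Co1 (-0.26), Sdha (-0.26), Cox6c (-0.25), Cox5b (-0.23), Cox7a2 (-0.21), Cox8a (-0.19), Sdhc (-0.19), mt-Cytb (-0.19), Cox6a1 (-0.18), Sdhb (-0.14), mt-Nd5 (-0.10), Cox6b1 (-0.074) and Cox4i1 (-0.054). For KO minus WT in set 6, the quantile differences of the opposite sign were Cox7b (-0.36), Cox5a (-0.39), mt-Atp6 (-0.42), Sdhd (-0.34), mt-Nd4l (-0.31), Cox7c (-0.33), mt-Co1 (-0.35), Sdha (-0.26), Cox6c (-0.30), mt-Nd4 (-0.26), Cox5b (-0.27), Cox7a2 (-0.24), Cox8a (-0.24), Sdhc (-0.18), mt-Cytb (-0.19), Cox6a1 (-0.23), Sdhb (-0.15), mt-Nd5 (-0.13), Cox6b1 (-0.10) and Cox4i1 (-0.075). For set 5 minus set 3 in KO, the centred differences of the opposite sign were Sdhb (-0.36), Cox6b1 (-0.29), mt-Nd4 (-0.29), Cox6a1 (-0.28), Cox6c (-0.23), Cox8a (-0.16) and Cox4i1 (-0.0022). For set 5 minus set 3 in KO, the quantile differences of the opposite sign were Sdhb (-0.34), Cox6b1 (-0.37), Cox6a1 (-0.33), Cox6c (-0.29), Cox8a (-0.21) and Cox4i1 (-0.052). Of 204 named member differences, adding 1 on the linear scale left all 204 in direction and side of the threshold, and a mean log2 value of at least 6 left 193 so, with 1 newly passing. Depth is unknown, so the precision at low values rests on the 3 libraries of a group.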
